A study of Rattus norvegicus with 2 samples.

Results

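The annexins are a family of calcium-dependent membrane-binding proteins. They were examined in rat hippocampal neural stem cells exposed to sevoflurane, an inhaled general anaesthetic. Members were taken as the non-control probes whose RefSeq messenger RNA accession belongs to Anxa1 to Anxa8, Anxa10 or Anxa11. This gave 10 probes, 1 for each gene and each printed in 1 spot, of 24684 probes on the array. The family itself was picked from the sevoflurane and control signals of these same arrays, whose differences were already known, so its differences are given as a description, without a test. One array held RNA of cells exposed to 2.4% sevoflurane and the other held RNA of cells under 0% sevoflurane (the control). Cells of both groups came from Sprague-Dawley rats at postnatal day 3, were grown without serum in bFGF medium to passage 3, and spent 6 h under their gas and then 24 h in an ordinary incubator. Some labels name only the 6 h, so the time of harvest is uncertain, and the labels do not say whether RNA of several cultures was pooled for an array. With 1 array per group, no difference below has a replicate check and no p-value was computed.

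An annexin consists of a conserved core that binds acidic phospholipids when calcium is present and of a variable amino-terminal tail that binds partner proteins, often members of the S100 family. Annexins take part in membrane repair, in vesicle traffic and in linking membranes to the actin cytoskeleton, and some act outside the cell. In the nervous system they are mostly known from glia, injured neurons, vessels and infiltrating immune cells.

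Each of the 10 annexin probes was called well above background in both samples. Relative to each array's 75th percentile, all 10 were higher in the sevoflurane sample, with a median difference of 1.47 log2 units (sevoflurane minus control, as for every difference below). This median was 0.27 over the 10028 measured genes, that is, genes with a probe so called in both samples. At least 2-fold higher were 8 of the 10 annexins, beside 28.2% of measured genes, and 0 of 10 were at least 2-fold lower, beside 11.2%. Anxa3 and Anxa4 were at least 2-fold higher under each of the 10 settings tried. The other members lost that size, or never had it, under at least 1 setting, and Anxa5 and Anxa6 had the opposite sign when the arrays were left unscaled or scaled on the median, as Anxa1 had with the median. The 75th percentile of the signal was 359 in sevoflurane-exposed cells and 692 in control cells, so scaling adds 0.95 log2 units to every unscaled difference.

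**Figure D1:**
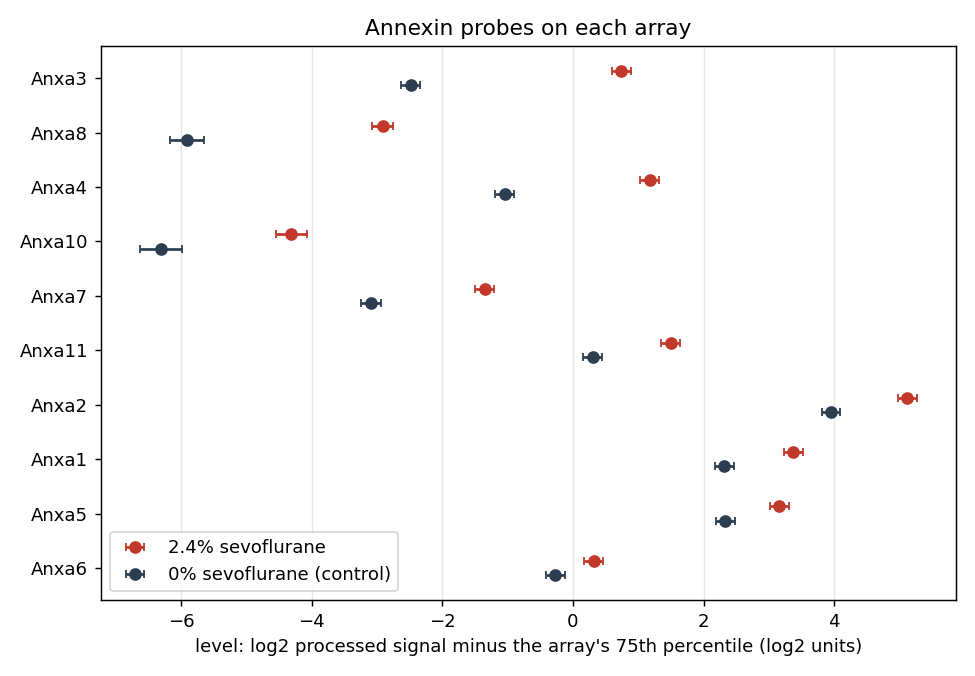
Level of each annexin probe in sevoflurane-exposed cells and in control cells, as log2 of the processed signal minus the 75th percentile of that array. Bars are the error that the scanner software gives for the spot, points are single arrays, and rows run by the size of the difference, from Anxa3 (3.22) to Anxa6 (0.59); positions of different probes on the axis do not rank the amounts of their transcripts.

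Anxa3, whose product binds membranes and has been linked to phospholipase inhibition and to cell migration, had the highest difference. Its processed signal was 601 ± 60.1 in sevoflurane-exposed cells and 124 ± 12.5 in control cells (± the error the scanner software estimates for the spot, 1 spot each). The difference was 3.22 log2 units, or 9.32-fold, with a 95% interval of 2.82 to 3.62 that covers the error of the spots only. Without any scaling the ratio was still 4.84, and over the 10 settings the difference ran from 2.13 to 3.22. Anxa4, known from secretory epithelia, where it self-associates on membranes, had signals of 812 ± 81.2 in sevoflurane-exposed cells and 335 ± 33.6 in control cells. Its difference was 2.22, or 4.66-fold (95% interval of the spot error 1.82 to 2.62), and 2.42-fold unscaled. Both genes lay above the bulk of genes of similar signal: the 10th to 90th percentiles of the difference were -1.48 to 1.63 among genes in the same one of 10 equal groups by signal as Anxa3, and -1.26 to 1.54 in the group of Anxa4. Anxa7 (1.74), Anxa1 (1.05), Anxa5 (0.83) and Anxa6 (0.59) lay within this range of their own groups. The 90th percentiles there were 2.13 for Anxa7, 1.09 for Anxa1 and Anxa5, and 1.54 for Anxa6. Anxa2 (1.17) and Anxa11 (1.19) lay slightly above theirs, at 1.09 and 1.15. Their spot-error intervals (0.77 to 1.57 for Anxa2, 0.79 to 1.59 for Anxa11) include those percentiles.

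The sequence around the annotated start of both genes is shown beside that of Anxa5, whose difference stayed under 2-fold in every setting, so that the starts of genes with unlike differences can be read together. Each stretch runs from 250 bases before to 50 bases after the RefSeq start (GRCr8, 5′ to 3′ on the gene's strand). Capitals mark GGGCGG, the GC box, on either strand. The stretches lie at chr14:13085548-13085847 (Anxa3), chr4:120798464-120798763 (Anxa4) and chr2:121272647-121272946 (Anxa5), all on the minus strand.
Anxa3: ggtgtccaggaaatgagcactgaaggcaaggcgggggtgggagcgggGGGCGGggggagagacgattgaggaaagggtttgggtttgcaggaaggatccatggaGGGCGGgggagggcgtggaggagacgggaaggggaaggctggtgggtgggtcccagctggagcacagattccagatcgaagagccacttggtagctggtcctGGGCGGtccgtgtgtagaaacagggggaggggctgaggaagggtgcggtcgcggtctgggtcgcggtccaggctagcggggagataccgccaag
Anxa4: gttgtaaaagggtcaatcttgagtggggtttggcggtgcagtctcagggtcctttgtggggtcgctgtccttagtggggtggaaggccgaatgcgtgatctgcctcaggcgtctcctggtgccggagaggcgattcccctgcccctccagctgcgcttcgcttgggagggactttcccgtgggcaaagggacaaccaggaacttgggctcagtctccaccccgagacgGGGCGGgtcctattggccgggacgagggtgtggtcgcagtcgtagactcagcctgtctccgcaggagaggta
Anxa5: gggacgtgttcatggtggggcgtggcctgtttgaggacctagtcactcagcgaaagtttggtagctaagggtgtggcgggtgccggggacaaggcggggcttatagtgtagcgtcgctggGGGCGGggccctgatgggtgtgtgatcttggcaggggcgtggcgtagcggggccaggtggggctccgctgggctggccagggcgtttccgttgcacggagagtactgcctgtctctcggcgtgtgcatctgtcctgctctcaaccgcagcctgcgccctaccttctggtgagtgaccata
All 3 were rich in CpG, with 17 CpG dinucleotides in Anxa3, 18 in Anxa4 and 20 in Anxa5, where the median of 33469 rat promoters of this length was 7. The GC box occurred 3 times in Anxa3 and once in each of the other two. None of the 3 held TGANTCA (the AP-1 motif), TGACNNNGC (the core of the antioxidant element that NRF2 binds, which can overlap the AP-1 motif) or TATAAA on either strand. RefSeq promoters were found for 9 of the 10 members, all but Anxa6. Of these 9, 2 held the AP-1 motif (Anxa2 and Anxa10), as did 7.33% of all promoters. The NRF2 core stood in 1 (Anxa1), against 12.1% of all promoters, TATAAA in 3 (Anxa1, Anxa2 and Anxa10), against 14.2%, and the GC box in 6, against 33.1%. A match is a description of the sequence and not a binding site.

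Anxa8 and Anxa10 were dim on both arrays. Anxa8, known for high expression in some epithelia and in acute promyelocytic leukaemia, had signals of 47.7 ± 5.34 in sevoflurane-exposed cells and 11.5 ± 2.11 in control cells, a difference of 3.00 (95% interval of the spot error 2.39 to 3.60). Anxa10, a member known mainly from gastric epithelium, had 18.1 ± 3.00 in sevoflurane-exposed cells and 8.72 ± 1.94 in control cells, 4.01-fold higher (interval 1.22 to 2.79 in log2 units). Both lie in the dimmest of those 10 groups, where the median difference was 1.69 and 75.6% of genes were at least 2-fold higher, so most genes there shared the direction. Against that group's 10th to 90th percentiles of 0.44 to 2.69, Anxa8 lay above and Anxa10 within, though the spot-error interval of Anxa8 includes 2.69. With normexp and quantiles Anxa8 was at 0.40. After a correction for the dependence on signal (a loess curve through all measured probes), Anxa8 was at 1.44 and Anxa10 at 0.22. Quantile normalization gave 1.38 for Anxa8 and -0.50 for Anxa10, so the direction of Anxa10 depends on the scaling.

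**Figure D2:**
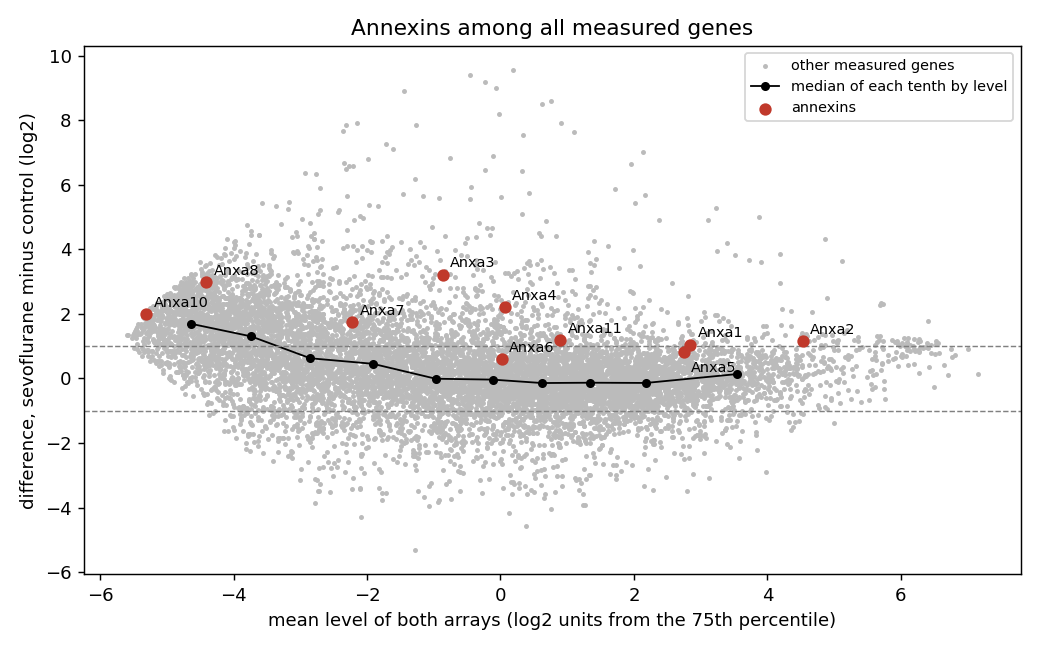
Difference (sevoflurane minus control, log2) against the mean level of both arrays for all measured genes (grey) and the 10 annexins (red); the black line joins the medians of 10 equal groups of genes by level and dashed lines mark 2-fold. The medians run from 1.69 in the dimmest group to -0.14 in group 7, and Anxa3 and Anxa4 sit well above the line while Anxa10 sits near it.

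Anxa7 and Anxa11 carry long tails rich in glycine, proline and tyrosine and bind the calcium sensor encoded by Pdcd6. Anxa11 also tethers RNA granules to lysosomes in axons. The signal of Anxa7 was 141 ± 14.3 in sevoflurane-exposed cells and 81.3 ± 8.30 in control cells, a difference of 1.74 that was 1.21 after the intensity-dependent correction. Anxa11 had 1014 ± 101 in sevoflurane-exposed cells and 853 ± 85.3 in control cells, a difference of 1.19 (1.37 after the correction). Unscaled, the ratio was 1.74 for Anxa7 and 1.19 for Anxa11.

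Anxa1 and Anxa2 are the members best known for action outside the cell. Anxa1 is an anti-inflammatory ligand of formyl peptide receptors, and Anxa2 forms a tetramer with S100a10 that binds plasminogen and its activator at the cell surface. Anxa1 had signals of 3716 ± 372 in sevoflurane-exposed cells and 3454 ± 345 in control cells, a difference of 1.05. Anxa2 had 12474 ± 1247 in sevoflurane-exposed cells and 10704 ± 1070 in control cells, a difference of 1.17. These unscaled signals differ by less than the 95% error of the spots, at ratios of 1.08 for Anxa1 and 1.17 for Anxa2, and 0.95 log2 units of each difference come from the scaling. The correction for signal left Anxa1 at 1.09 and Anxa2 at 0.78.

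Anxa5, which binds exposed phosphatidylserine and is used as a label of dying cells, and Anxa6, which has a duplicated core and takes part in endocytosis and cholesterol traffic, had the smallest differences. Anxa5 had 3215 ± 321 in sevoflurane-exposed cells and 3493 ± 349 in control cells. Anxa6 had 448 ± 44.9 in sevoflurane-exposed cells and 574 ± 57.4 in control cells. Both were thus lower before scaling, at ratios of 0.92 for Anxa5 and 0.78 for Anxa6, and higher after it, at 0.83 and 0.59 log2 units. In none of the 10 settings did either reach 2-fold in any direction.

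Ordered by size under the 75th percentile, the differences ran Anxa3, Anxa8, Anxa4, Anxa10, Anxa7, Anxa11, Anxa2, Anxa1, Anxa5 and Anxa6. Between neighbours in this order, the gap exceeded the 95% error of the spots for 1 of 9 pairs, that of Anxa8 and Anxa4 (0.77 log2 units). That order depends on the setting. Anxa8 lay below Anxa4 after the intensity-dependent correction (1.44 and 2.33), under quantile normalization and likewise in the authors' deposited values (1.38 and 2.16 in both), and with normexp (1.43 and 2.15 under the 75th percentile, 0.40 and 2.09 under quantiles). Anxa2 and Anxa7 have annotated pseudogene copies, so their probes may also bind related transcripts, which was not tested.

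**Figure D3:**
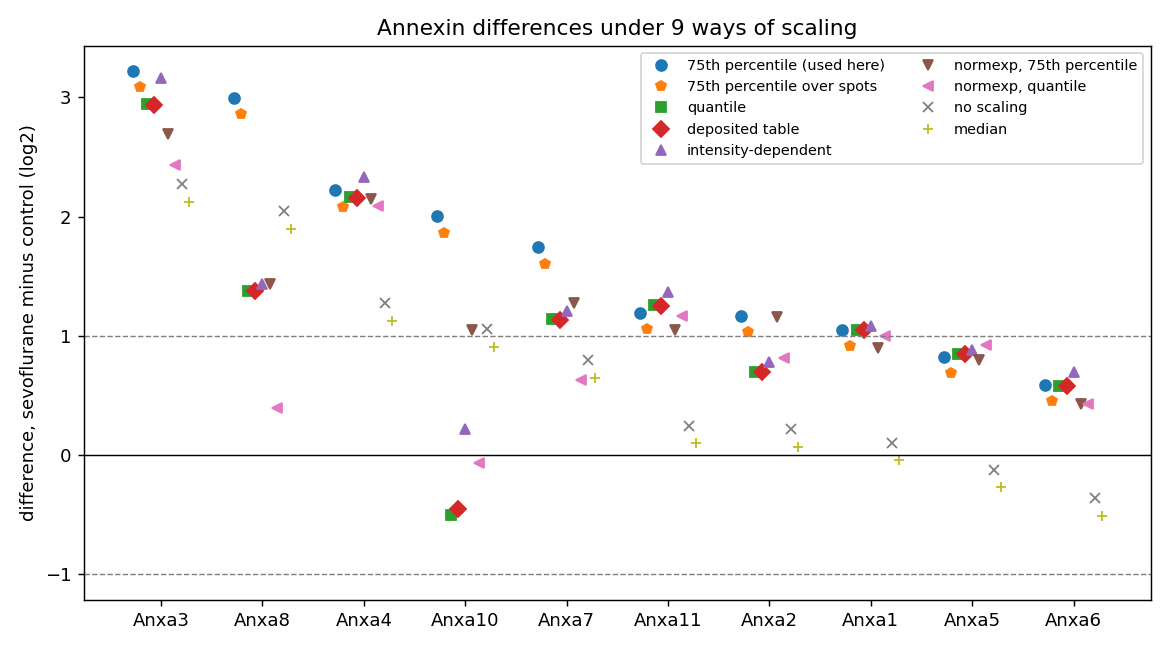
Difference of each annexin (sevoflurane minus control, log2) under 9 ways of scaling or background correction, with 1 symbol for each; dashed lines mark 2-fold and the solid line no difference. All 9 symbols of Anxa3 and of Anxa4 lie above the upper dashed line, whereas those of Anxa10 spread across 0 and reach down to -0.50.

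The median of all measured genes moves with the scaling. Settings that add 1 constant to every gene (75th percentile, median, no scaling) leave the distance of the annexins from it the same by construction, at 1.20 log2 units for the annexin median. That distance was also 1.20 after quantile normalization and in the authors' deposited table, and it was 1.15 after the intensity-dependent correction and 0.78 to 0.94 with normexp background correction. All members but Anxa10 lay above the gene median in each setting, whereas Anxa10 lay below it in the deposited table (-0.35) and under quantile normalization (-0.40). At least 2-fold higher were 6 of 10 annexins after the intensity-dependent correction, beside 15.0% of genes, and 6 of 10 after quantile normalization, beside 13.6%. The authors' deposited table also gave 6 of 10, beside 13.6%. With normexp the count was 7 (23.1% of genes) under the 75th percentile and 3 (8.22%) under quantiles. It was 7 (25.4%) with the 75th percentile over spots, 8 (28.2%) with outlier spots kept, 4 (12.6%) unscaled and 3 (10.5%) with median scaling. No annexin was at least 2-fold lower in these settings, where the share of genes that low was 15.5% after the correction, 19.6% after quantile normalization, 19.2% in the deposited table, 8.45% and 10.7% with normexp (75th percentile and quantiles), 13.6% with the percentile over spots, 11.3% with outlier spots kept, 38.1% unscaled and 43.5% with median scaling.

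Proteins that annexins work with were read from lists of known partners and pathways. Of 8 measured partner genes, 6 were at least 2-fold higher and 0 lower, beside 28.2% and 11.2% of measured genes, and the median was 1.42. After the intensity-dependent correction 4 were higher, beside 15.0% of genes, and the median was 1.04. Unscaled and with median scaling, 3 partners were at least 2-fold higher, beside 12.6% and 10.5% of genes. In both settings 2 (Pdcd6 and Tsg101) were at least 2-fold lower, beside 38.1% and 43.5%. S100a6, a partner of Anxa11, had signals of 2557 in sevoflurane-exposed cells and 216 in control cells, a difference of 4.51 with a spot error of 0.20. S100a4, linked to cell motility, differed by 2.57 (signals 329 in the sevoflurane sample and 107 in the control), and S100a1 by 2.53 from low signals (36.0 in the sevoflurane sample and 12.0 in the control), a difference of 0.92 after the correction. S100a10, the partner of Anxa2, differed by 1.26, and S100a11, the partner of Anxa1, by 1.04, and these were 0.31 and 0.09 unscaled. Pdcd6, the partner of Anxa7 and Anxa11, differed by -0.58, with signals of 202 in the sevoflurane sample and 584 in the control.

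Of the 3 listed receptors of Anxa1, only Fpr1 had a matched probe, so the others could not be read. Fpr1 was called above background in the sevoflurane sample alone, with a signal of 14.2 there and 1.79 in the control. Set against the lowest signal called well above background in the control (7.22), it was 3.78-fold higher after scaling and 1.96-fold higher unscaled. These folds take in no spot error. Such one-sided calls were made for 4491 probes in the sevoflurane sample and 396 in the control. That is 18.2% and 1.61% of the 24629 probes with a spot kept on both arrays. Of 5 measured genes of the plasmin system, on which Anxa2 acts, 2 were at least 2-fold higher and 0 lower, beside 28.2% and 11.2% of measured genes. Their median was 0.89, against -0.06 unscaled and -0.21 with median scaling. After the correction 1 was higher, beside 15.0% of genes, and the median was 0.75. Plaur, the receptor of urokinase, differed by 2.39 (signals 213 in the sevoflurane sample and 78.3 in the control). Plg differed by 1.42 but by -0.22 after the correction, at signals of 22.2 in the sevoflurane sample and 15.9 in the control. Of 9 membrane repair genes 6 were at least 2-fold higher and 0 lower (28.2% and 11.2% of measured genes), with a median of 1.04. After the correction 2 were higher (15.0% of genes) and the median was 0.23. With median scaling that median was -0.06 and 3 were at least 2-fold lower, beside 43.5% of genes. Dysf, the repair protein dysferlin, differed by 3.16 (signals 282 in the sevoflurane sample and 60.6 in the control), Trim72 by 2.33 and Syt7 by 1.57, and after the correction they were at 2.74, 0.83 and 0.03. Of 6 eicosanoid enzymes, whose substrate release Anxa1 is known to restrain, 5 were at least 2-fold higher and 0 lower. That stood beside 28.2% and 11.2% of measured genes. After the correction 3 were higher and 1 lower, beside 15.0% and 15.5%. Ptgs2 differed by 3.96 (2.61 after the correction, 0.99 with normexp and quantiles), from signals of 94.7 in the sevoflurane sample and 11.8 in the control. Ptgs1 differed by 3.45 (2.82 after the correction, 1.79 with normexp and quantiles) and Ltc4s by 1.93 (0.34 after the correction).

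Markers of cell types differed in both directions, and their part in the annexin differences was not tested. Beside the counts below, 28.2% of measured genes were at least 2-fold higher and 11.2% lower. These shares were 15.0% and 15.5% after the correction and 10.5% and 43.5% with median scaling. With normexp and quantiles they were 8.22% and 10.7%. Sums of marker signals below are taken before scaling, where the 75th percentile was 359 in the sevoflurane sample and 692 in the control. In some lists the brightest probe makes up much of the sum, as with 37910 of 63473 for neurons in the control. The sums therefore do not measure how much of a cell type was present. In bulk RNA, fewer cells of a type and less RNA per cell cannot be told apart. All 7 markers of neural stem cells were measured. At least 2-fold higher were 2 and lower 0 (0 and 4 with median scaling), the median was -0.45, and their sums were 9712 in sevoflurane-exposed cells and 26364 in control cells. Among them was Nes with unscaled signals of 777 in the sevoflurane sample and 616 in the control. The difference of Nes was 1.28 (0.19 with median scaling). The defining factor Sox2 had unscaled signals of 1993 in the sevoflurane sample and 6835 in the control. Its difference was -0.83 (-1.93 with median scaling). Mesenchymal and pericyte markers, a class of cells rich in annexins, numbered 11 measured genes, of which 6 were at least 2-fold higher and 0 lower. Their median was 1.19 (0.80 and 5 higher after the correction), while their summed signal was 69536 in sevoflurane-exposed cells and 78346 in control cells. With median scaling the median of these markers was 0.09, with 2 at least 2-fold higher and 1 lower. With normexp and quantiles it was 0.53, with 2 higher and 0 lower. Microglial markers, of cells that also express annexins, were at least 2-fold lower in 6 of 8 cases, with a summed signal of 1205 in sevoflurane-exposed cells and 11830 in control cells, and Cx3cr1 was not above background on either. Neuronal markers were at least 2-fold lower in 3 of 5 cases (5 after the correction), with sums of 13348 in sevoflurane-exposed cells and 63473 in control cells. Of 7 astrocyte markers 2 were at least 2-fold higher and 3 lower, or 1 and 5 after the correction, with sums of 1066 in sevoflurane-exposed cells and 6487 in control cells. All 5 red cell markers were at least 2-fold higher, with sums of 9173 in sevoflurane-exposed cells and 1567 in control cells. Of 5 endothelial markers 4 had a matched probe and 2 were measured. Of the rest, 1 was called above background in the sevoflurane sample alone and 1 in neither sample. Both measured genes were higher, Cldn5 by 2.65 and Flt1 by 2.61, at low signals. After the correction these were 1.47 and 0.90, and with normexp and quantiles 0 of 2 were at least 2-fold higher. The scan dates of the arrays also differ, so the day of scanning and the gas cannot be told apart.

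**Figure D4:**
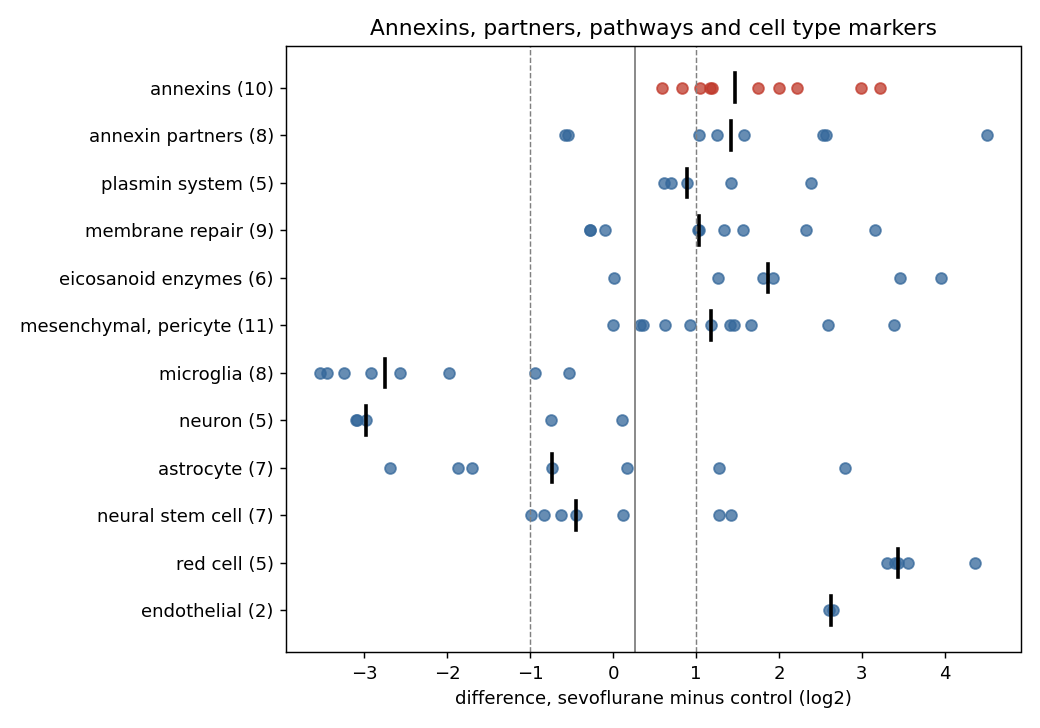
Differences (sevoflurane minus control, log2, 75th percentile scaling) of the measured members of each list, with the number of members in brackets; black bars are medians, the solid grey line is the median of all measured genes (0.27) and dashed lines mark 2-fold. The 10 annexins lie between 0.59 and 3.22, on the same side as most partner genes and opposite to all 8 microglial and most neuronal markers.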

How the data were processed

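Rat hippocampal neural stem cell RNA was hybridised to 1-colour (Cy3) arrays, 1 for sevoflurane and 1 for control. Spot intensity is on a linear scale, as deposited; the program was Agilent Feature Extraction, version 11.0.1.1, per the file headers and also the submitters' processing notes. Its processed signal is background-corrected but not scaled between arrays. A deposited table of 24529 values, read as the authors' log2 values because it correlated at 0.991 (sevoflurane) and 0.993 (control) with log2 signals, served as an alternative. Its medians were 5.61 (sevoflurane) and 5.60 (control), and its method and centring are unknown. Its differences correlated at 0.968 with those of quantile normalization here, so it is no separate check on that setting.

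Control spots and outlier spots (521 on the sevoflurane and 580 on the control array, of 42136) were left out, spots of a probe averaged in log2, and each array's 75th percentile over probes subtracted (R 4.3.3, limma 3.58.1). No spot was saturated. A probe was measured when most of its spots were well above background in both samples, and where a gene had several such probes the brightest on average stood for it. RefSeq accessions without versions named 14274 of 15323 mRNA probes (GRCr8 gene table). A probe above background on 1 array only was set against the lowest signal well above background on the other array, or its own if higher. This gives no strict lower bound, since a probe not called can exceed that signal. On the sevoflurane array 1 such probe had 10.2, where the lowest called was 6.88. The error of a difference combines the software's errors of both spots. Alternatives were quantile, median and no scaling, a loess correction, normexp (offset 50, on median signals, as the files hold no mean signal), the 75th percentile over spots, kept outliers, no dim filter, means over probes and other folds; no scaling and the spot percentile were chosen after seeing the data. The 75th percentile, quantile, median and loess steps were tested on simulated data with a uniform shift and as many probes raised as lowered. That test held no dependence on signal, so it does not check the settings against the trend seen here. The number of arrays limits the precision.

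All members were named. Any other gene named has 1 of the 3 highest absolute differences of its list, apart from known partners and the cell type markers Sox2 and Cx3cr1. Genes of like level were not sought, although planned, since levels of different probes cannot be compared. One gene of the plasmin list is not reported here and does not enter its counts. Members and lists were chosen with earlier results of these data known.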

Additional observations from a re-analysis of the deposited data

How the results depend on the processing

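No paired analysis was possible because each group has 1 array. The median annexin difference of 1.47 was 1.09 after quantile normalization and in the authors' deposited table, 1.15 after the intensity-dependent correction, 1.11 with normexp and the 75th percentile, 0.87 with normexp and quantiles, 0.37 with median scaling and 0.52 unscaled. The 8 annexins at least 2-fold higher became 3 with median scaling, 3 with normexp and quantiles, 4 unscaled and 5 with a 3-fold rule, and 0 were lower in any setting. Among the measured genes, 2823 were higher here, 1368 after quantile normalization, 1050 with median scaling, 1500 after the correction, 824 with normexp and quantiles, 1359 in the deposited table and 1260 unscaled. Without the filter on dim probes, 6387 of 13862 genes were higher. Lower were 1124 here, 1968 after quantile normalization, 4364 with median scaling, 1917 in the deposited table and 3824 unscaled. Anxa1 was at -0.044 with median scaling, and Anxa10 at -0.50 after quantile normalization, -0.068 with normexp and quantiles and -0.45 in the deposited table; the cause was not tested. Of 80 alternative values of single annexins (kept outlier spots not counted), 37 stayed within the spot error of the value used here. Low signals limit Anxa8 and Anxa10, and 1 array per group limits all.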

Other observations

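Anxa13, a relative outside the 10 members and known from intestinal epithelium, was called above background in the sevoflurane sample alone, with a signal of 30.0 there and 6.63 in the control. Set against the lowest signal called well above background in the control (7.22), it was 8.01-fold higher after scaling and 4.16-fold higher unscaled. These folds take in no spot error, and no corrected or quantile value is given for this dim probe. Such one-sided calls were made for 4491 probes in the sevoflurane sample and 396 in the control. That is 18.2% and 1.61% of the 24629 probes with a spot kept on both arrays. In the dimmest of the 10 groups of measured genes by signal, 75.6% were at least 2-fold higher under the 75th percentile.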
